A study of Mus musculus with 4 samples.

Results

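The miR-130 and miR-301 family was measured in mouse MIN6 insulinoma cells and in the exosomes that these cells release, through the 6 mature strands of its hairpins chosen by their mature ID. They were mmu-miR-130a-3p, mmu-miR-130b-3p, mmu-miR-301a-3p and mmu-miR-301b-3p, which are the 3p arms, and mmu-miR-130b-5p and mmu-miR-301a-5p, which are 5p arms. The prefix mmu, for mouse, is left out of most names below. They are 6 of the 1915 mature miRNAs listed, of which 1101 had at least 1 count in any library. MIN6 is an insulin-secreting beta-cell tumour line. No treatment is named for the cells, which were grown in medium with exosome-depleted serum, and the exosomes were pelleted by ultracentrifugation from the filtered medium conditioned by the same line. Small RNA of 2 cell libraries and 2 exosome libraries was sequenced, and a single cell line without a control vesicle preparation limits what can be said of beta cells in general. Nothing in the labels says whether the libraries of a group came from separate cultures, so p-values measure only the spread between these libraries. The comparison asks how the miRNA content of the exosomes differed from that of the cells that made them.

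A miRNA hairpin is cut into a duplex of a 5p and a 3p strand, of which usually 1 is loaded into an Argonaute protein as the guide, and the other, the passenger, is mostly degraded. The guide finds its targets mainly through its seed, bases 2 to 8 from the 5′ end. The 3p arms of this family are the usual guides and are known to repress Pparg, the master regulator of fat cell formation. Exosomes carry a part of the miRNAs of their parent cell, in proportions that can differ from those in the cell.

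The 3p members are shown because their shared seed defines the family, and the capitals mark bases 2 to 8.
miR-130a-3p: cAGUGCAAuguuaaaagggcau
miR-130b-3p: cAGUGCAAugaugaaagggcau
miR-301a-3p: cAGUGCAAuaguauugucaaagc
miR-301b-3p: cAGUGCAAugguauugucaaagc
The first 9 bases were the same in all 4. From base 1 at the 5′ end, miR-130a-3p and miR-130b-3p differed by U11A and A13G, and miR-301a-3p and miR-301b-3p differed by A10G alone. Between the miR-130 and the miR-301 strands 9 to 11 of 22 aligned positions differed, most of them in the 3′ part. How the counting treated a mismatched read is not given in the sources used here, so the division of reads between miR-301a-3p and miR-301b-3p, and between the 2 miR-130 strands, is uncertain.

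The 5p members are shown because they carry other seeds, again in capitals.
miR-130b-5p: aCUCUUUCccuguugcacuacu
miR-301a-5p: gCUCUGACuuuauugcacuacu
All members were 22 or 23 bases long, so their counts can be compared per length, although the efficiency of capture may differ between sequences.

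The 4 hairpins lie at 3 places in the mouse genome (build GRCm38, GENCODE vM21). Mir130a is on chromosome 2, chr2:84741115-84741178 on the minus strand, and overlaps no other annotated gene. Mir301, the gene of mir-301a, is on chromosome 11, chr11:87113004-87113089 on the plus strand, inside an intron of Ska2, whose product takes part in the attachment of chromosomes to the spindle. Mir130b (chr16:17124061-17124142) and Mir301b (chr16:17124400-17124496) are on the minus strand of chromosome 16, 257 bases apart, both inside an intron of 2610318N02Rik. The mir-130b hairpin is shown because both of its arms are members. The capitals mark miR-130b-5p and miR-130b-3p.
mir-130b: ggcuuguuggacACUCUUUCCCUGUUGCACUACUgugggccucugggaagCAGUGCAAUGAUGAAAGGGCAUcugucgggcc

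Depth was very unequal between the groups and cannot be told apart from them. The mature counts summed to 2930217 and 2564068 in the cells and to 47447 and 31409 in the exosomes, so that the detection floor of 3 counts equals 63.2 and 95.5 RPM in the exosome libraries. RPM is the count scaled to the sum of its library, and in normalized CPM the TMM factors are meant to correct for composition too. How far they do so was not tested. The median log2 fold change of exosomes over cells, over all tested miRNAs, was -0.75 with TMM and -0.07 with upper quartile scaling. The mean TMM factor was 2.50 times higher in the exosomes than in the cells, so every fold change on the normalized scale lies lower than on the RPM scale. Both scales are relative to the other miRNAs of a library and give no copies per vesicle. Fewer copies of a miRNA and more of other miRNAs thus cannot be told apart. The islet miRNAs miR-375-3p and miR-7a-5p were abundant in the cells, with a summed level of 35943 and 36039 RPM, against 18990 and 8087 RPM in the exosomes. The 2 markers differed. miR-375-3p overlapped between the groups, at 9113 and 9881 RPM in the cells and 10686 and 7068 RPM in the exosomes. miR-7a-5p was lower in the exosomes, at 8304 and 1019 RPM against 26831 and 26158 RPM. Marker miRNAs of 5 of 6 other tissues or cell types were higher in both exosome libraries than in either cell library. By RPM the same held for 41.3% of all tested miRNAs. The erythroid value in exosome replicate 2 rests on 2 counts and lies below the detection floor. The liver marker miR-122-5p had 4.44 and 8.19 RPM in the cells and 1665 and 1974 RPM in the exosomes, the 2 mesenchymal markers summed to 13.7 and 8.58 against 1180 and 1210 RPM, and the 2 erythroid markers were at 0 in the cells and summed to 780 and 63.7 RPM in the exosomes. The 2 myeloid markers summed to at most 0.341 RPM in a cell library and to 653 and 414 RPM in the exosomes, and the endothelial marker miR-126a-3p had 15.0 and 25.0 against 780 and 732 RPM. Of the muscle markers, miR-133a-3p was at 0 in every library. miR-1a-3p had 47 and 29 counts in cells, 3 in exosome replicate 1 and 0 in exosome replicate 2. Scaled to RPM, miR-1a-3p was at 63.2 in exosome replicate 1, above both cell libraries, though this value rests on 3 counts. The 0 of exosome replicate 2 lies under a floor of 95.5 RPM and shows no direction. The part of such RNA in the family's exosome values was not tested.

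In the cells the family was led by miR-130b-3p. It had 6120 and 4458 counts and 3004 ± 232 normalized CPM (SD, n = 2), which placed it at rank 37 and 42 among the detected miRNAs of the 2 libraries. miR-130b-5p, from the same hairpin, followed with 976 ± 22.9 normalized CPM (SD, n = 2), miR-130a-3p with 837 ± 143 (SD, n = 2) and miR-301a-3p with 749 ± 62.8 (SD, n = 2). The values of miR-130a-3p and miR-301a-3p overlapped between libraries, so the spread between libraries does not separate them. Within each cell library miR-130a-3p had more counts, 1811 and 1155 against 1533 and 1106. miR-301b-3p was lower at 168 ± 4.47 normalized CPM (SD, n = 2), and miR-301a-5p was lowest at 29.1 ± 11.1 (SD, n = 2). In the exosomes miR-130b-3p again had the highest level, 1162 ± 391 normalized CPM (SD, n = 2), and miR-130a-3p was next at 241 ± 209 (SD, n = 2), while the other 4 members had at most 7 counts in a library. The 6 members together made up 0.399% and 0.335% of all mature reads of the cell libraries, 0.358% of exosome replicate 1 (95% Wilson interval 0.308 to 0.416) and 0.137% of exosome replicate 2 (0.102 to 0.184). All intervals and floors cover counting error alone. Exosome replicate 2 was the lower of the 2 exosome libraries for each member.

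**Figure D1:**
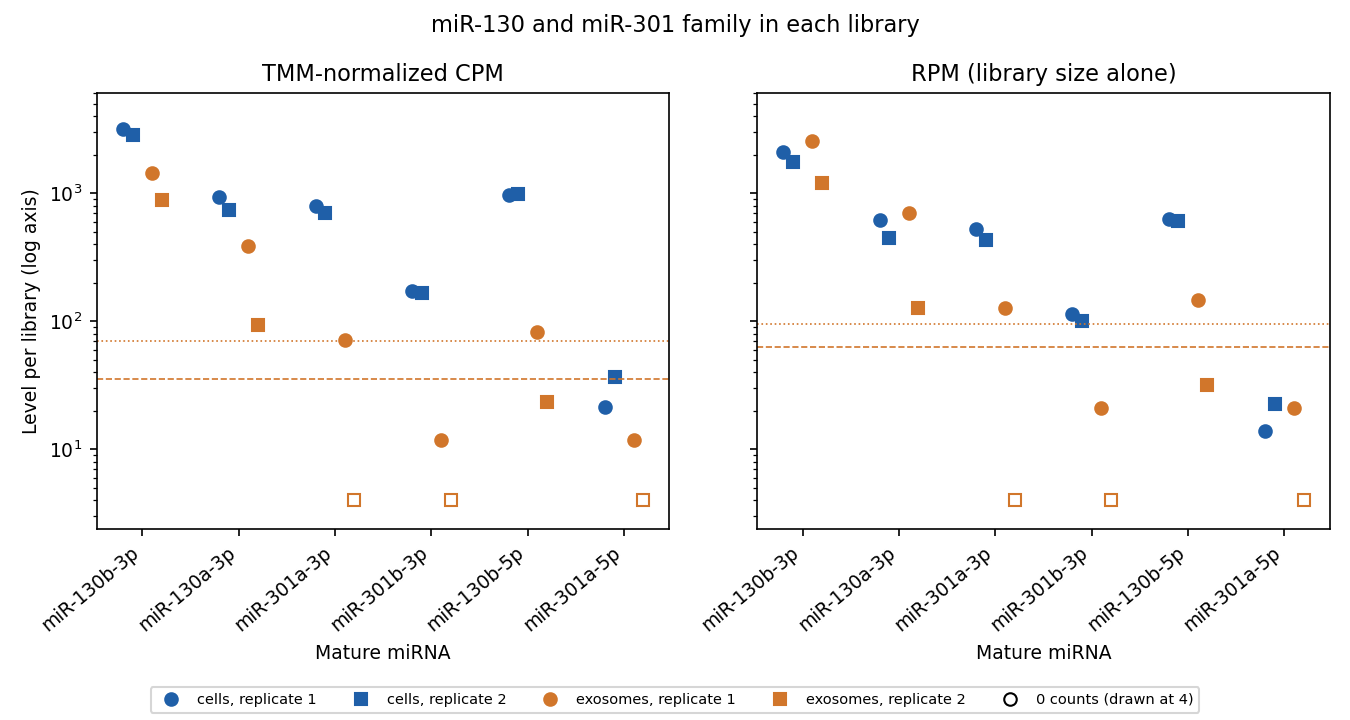
Level of each family member in each library, as TMM-normalized CPM (left) and RPM (right) on a log axis. Circles are replicate 1 and squares replicate 2, open symbols are libraries with 0 counts (drawn at 4), and the dashed and dotted lines are the level of 3 counts in exosome replicates 1 and 2. For miR-130b-3p and miR-130a-3p the groups overlap on the RPM scale, while for miR-130b-5p, miR-301a-3p and miR-301b-3p the 2 exosome points lie below the 2 cell points on either scale.

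Of the 6 members, all of which passed the filter on low counts, 3 fell in the exosomes and 0 rose in edgeR's quasi-likelihood test across 438 miRNAs (adjusted p under 0.05). The members that fell were miR-301a-3p, miR-301b-3p and miR-130b-5p. The filter asks for a minimum CPM in any 2 libraries, that of 10 counts at the median library size. At the depth of an exosome library 1 count meets it. miR-301a-3p, miR-301b-3p and miR-301a-5p, at 0 in exosome replicate 2, met it through the cells, where they are high. The count of members that fell and the p-values of these 3 are therefore given as a description. With at least 10 counts required in every library, miR-130b-3p was the 1 member left to test, and it passed as lower. Of the 100 miRNAs tested there, 40 were called lower and 37 higher. Across all tested miRNAs 29.5% were called lower and 23.7% higher. The median fitted log2 fold change was -2.97 over the 6 members and -0.75 over all tested miRNAs. By normalized CPM 6 of the 6 members had both exosome values under both cell values, as had 51.8% of all tested miRNAs (33.3% had them above). By RPM 3 of the 6 did, as did 33.8% of all (41.3% above). At the thresholds of the study (edgeR's exactTest, at least 2-fold, unadjusted p under 0.05) 5 of the 6 were lower, all but miR-301a-5p, and 0 higher. Of all tested miRNAs 37.9% were lower and 27.4% higher. The filter and the TMM scaling were those used here, so these are not the study's own calls. The study reported more miRNAs higher than lower in the exosomes. With library size alone, 1 of the 6 was lower, miR-130b-5p, and 0 higher, against 6.85% lower and 31.3% higher of all. Under that scaling 82.0% of all calls were higher, against 44.6% with TMM, and the median over all tested miRNAs moved from -0.75 to 0.61 on the log2 scale. Without cell replicate 1 or without cell replicate 2, 0 of the 6 members were called by edgeR's quasi-likelihood test, as were 0 of all tested miRNAs, while 3 of the 6 were lower at an unadjusted p under 0.05 in either case.

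**Figure D2:**
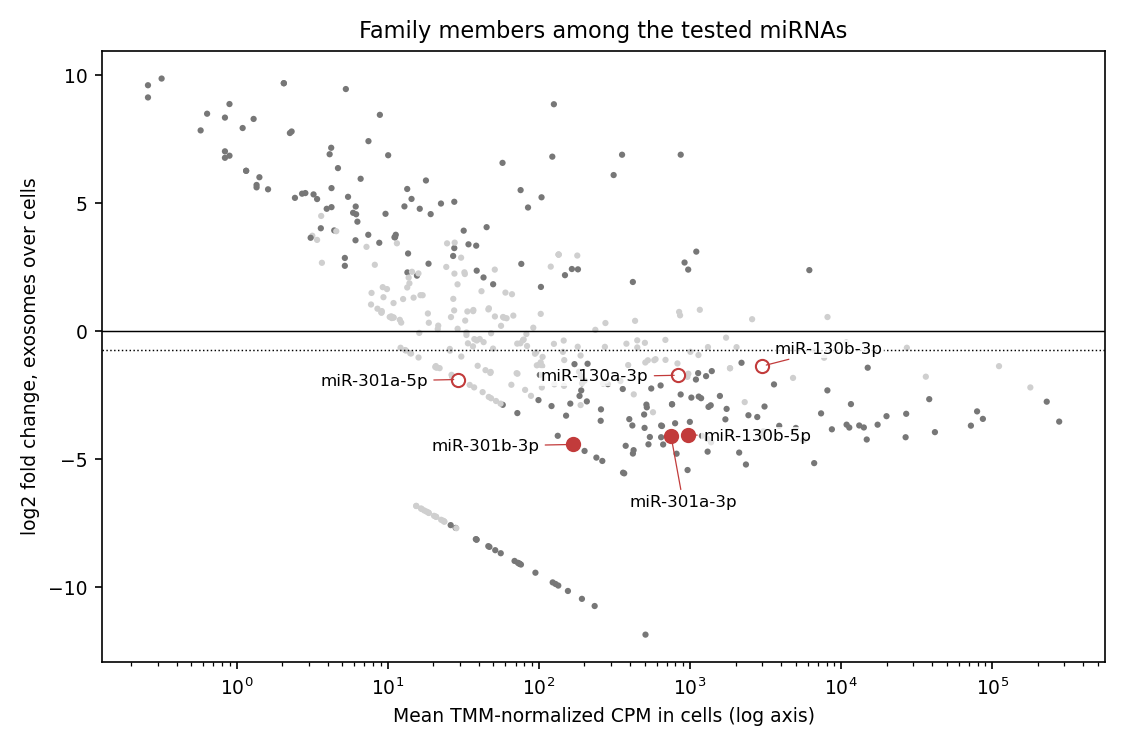
Fitted log2 fold change of exosomes over cells against the mean TMM-normalized CPM in the cells (log axis) for 429 tested miRNAs with a count in the cells, with called miRNAs in dark grey, others in light grey and the family in red (filled where called). The dotted line is the median of all tested miRNAs, -0.75; the 6 members lie below it, 3 of them between -4.05 and -4.42.

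Of mmu-miR-301a-3p, the 3p arm of the Ska2 intron, the cell libraries gave 1533 and 1106 counts and the exosome libraries 6 and 0. At an unchanged level under TMM, 63.5 and 32.2 counts would fall on it in the 2 exosome libraries, and 22.6 and 15.0 with library size alone. It thus lay low in both exosome libraries on either scale, and in replicate 2 its 0 counts allow a level of up to 95.5 RPM, below the 523 and 431 RPM of the cells. The log2 fold change was -4.11 (SE 0.92, edgeR quasi-likelihood adjusted p = 0.0260). With library size alone it was -2.73 (edgeR adjusted p = 0.0844), and the call was lost. As miR-301a-3p met the filter through the cells, these p-values only describe the fit. Without exosome replicate 1, which leaves the library at 0, the fitted value was -12.79 and is no measure of size, and without exosome replicate 2 it was -3.36.

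mmu-miR-301b-3p, which shares all but 1 base with miR-301a-3p, was counted 331 and 259 times in cells, and 1 and 0 times in exosomes. Since it was scarcer in cells than miR-301a-3p, fewer counts would have been seen at an unchanged level, 14.3 and 7.22 under TMM and 5.08 and 3.36 with library size alone. Its log2 fold change was -4.42 (SE 0.75, edgeR quasi-likelihood adjusted p = 0.0146), a fit that rests on 1 exosome count. miR-301b-3p also met the filter through the cells, so the p only describes this fit. From the summed counts of each group, the level was 21.5-fold lower in exosomes under TMM, with an exact 95% interval of 3.85 to 852, and 8.42-fold lower with library size alone (1.51 to 333). These intervals cover counting error alone and not the spread between the libraries of a group. The quasi-likelihood call was lost with library size alone (log2 fold change -3.07, edgeR adjusted p = 0.0545). The fitted value was -10.63 without exosome replicate 1, where the remaining library is at 0, and -3.78 without exosome replicate 2.

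mmu-miR-130b-5p, the less abundant arm of mir-130b, fell from 1854 and 1557 counts per cell library to 7 and 1 per exosome library. The RPM values were 633 and 607 for cells, 148 for exosome replicate 1 and 31.8 for exosome replicate 2, so the groups were separated without any correction for composition. The log2 fold change was -4.05 (SE 0.61, edgeR quasi-likelihood adjusted p = 0.0116), and with library size alone -2.68 (edgeR adjusted p = 0.0415). It was the single member to pass under each of the scalings tried. Leaving out exosome replicate 1 gave -5.43, and leaving out exosome replicate 2 gave -3.52.

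mmu-miR-130b-3p, the most abundant member, had 122 and 38 exosome counts, or 2571 and 1210 RPM, against 2089 and 1739 RPM in the cells. The exosome libraries thus lay on both sides of the cell libraries in RPM, and both lay below them in normalized CPM, at 1438 and 885 against 3168 and 2841. Its log2 fold change was -1.36 (SE 0.43), and edgeR's adjusted quasi-likelihood p of 0.0548 did not pass. With library size alone the log2 fold change was -0.00 (SE 0.57, edgeR adjusted p = 0.995). With both libraries of each group, miR-130b-3p passed with DESeq2 (adjusted p = 0.0117), with exactTest, without a filter (-2.66, edgeR adjusted p = 0.0116), with at least 10 counts in every library (edgeR adjusted p = 0.0193) and after removal of the top 5 miRNAs of either group (edgeR adjusted p = 0.0424). It also passed without exosome replicate 1 (-1.82) and without exosome replicate 2 (-1.02), where the single exosome library is assumed to vary like the cells.

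Of mmu-miR-130a-3p, the cells gave 1811 and 1155 counts and the exosomes 33 and 4. In RPM exosome replicate 1, at 696, lay above both cell libraries, at 618 and 450, while replicate 2, at 127, lay below them. Its log2 fold change was -1.72 (SE 0.71, edgeR quasi-likelihood adjusted p = 0.102) and -0.33 with library size alone, so no change was shown. Without exosome replicate 1 it was -3.22 and without exosome replicate 2 -1.07, and both passed the threshold, as did the values with DESeq2 (adjusted p = 0.0499), with exactTest and without a filter (-3.01, edgeR adjusted p = 0.0175).

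mmu-miR-301a-5p was counted 41 and 58 times in cells, and 1 and 0 times in exosomes. At an unchanged level under TMM only 2.47 and 1.25 counts would fall on it in the exosome libraries, so a decrease was not detectable at this depth. Its fitted log2 fold change was -1.89 (SE 1.10, edgeR quasi-likelihood adjusted p = 0.206), and the fold from the summed counts, 3.61-fold lower under TMM, had an exact 95% interval of 0.634 to 144. The 5p arms that are not members had still fewer counts. The cell libraries held 14 and 8 of miR-130a-5p and 3 and 6 of miR-301b-5p, and in the exosomes a single miR-130a-5p read, in replicate 1, was all that was found.

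**Figure D3:**
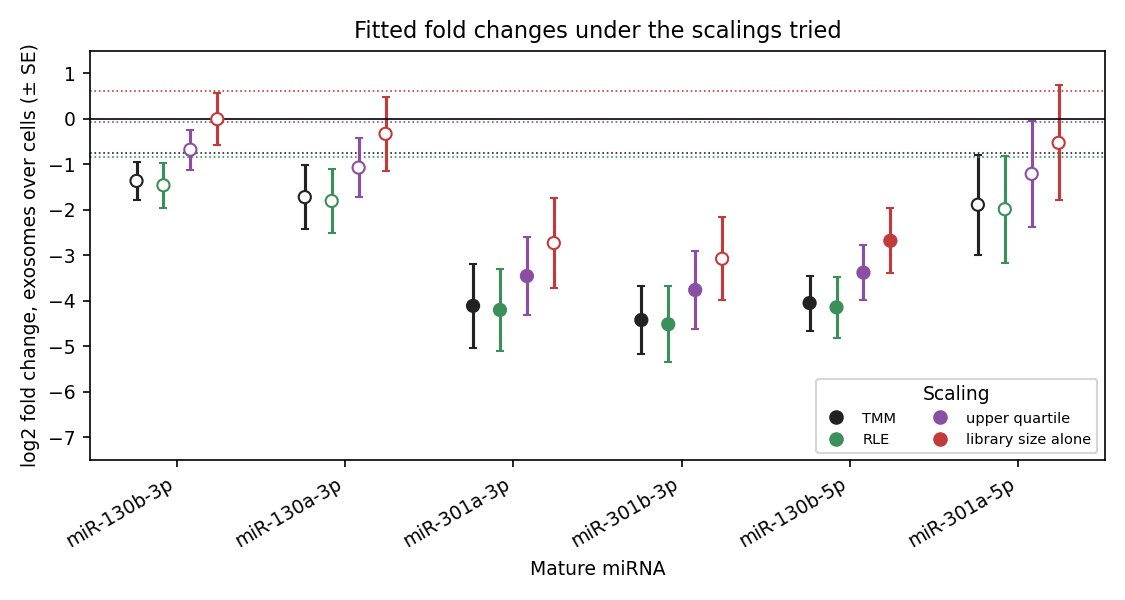
Fitted log2 fold change of exosomes over cells for each member (± SE) under the 4 scalings, with filled symbols where the adjusted p was under 0.05 and dotted lines at the median of all tested miRNAs under each scaling. miR-130b-5p is filled under each scaling, miR-301a-3p and miR-301b-3p under all but library size alone, and miR-130b-3p, miR-130a-3p and miR-301a-5p under none.

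The proportions among the family members do not depend on the scaling, because they are taken within a library. Of the 3p counts of the family, miR-301a-3p and miR-301b-3p together held 19.0% (1864 of 9795) and 19.6% (1365 of 6978) in the cells. In the exosomes they held 4.32% (7 of 162; 95% Wilson interval 2.11 to 8.65) and 0 of 42, which allows a share of up to 7.14%. The miR-301 share was thus lower in both exosome libraries than in either cell library, beyond the counting intervals, which leave out the spread between libraries. How often such shares separate in other families was not examined. For single miRNAs separation was common, as by normalized CPM 51.8% of all tested were lower and 33.3% higher in both exosome libraries. miR-130b-3p took 62.5% and 63.9% of the 3p counts in the cells and 75.3% (68.1 to 81.3) and 90.5% (77.9 to 96.2) in the exosomes. The share of miR-130a-3p, 18.5% and 16.6% among cell libraries against 20.4% and 9.52% among exosome libraries, overlapped between the groups. With 2 libraries against 2, an exact permutation test (two-sided) cannot go below p = 0.33, the value it gave for both the miR-301 and the miR-130b-3p share (0.61 after Benjamini-Hochberg adjustment over the 11 shares compared in this way).

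The clustered hairpins mir-130b and mir-301b, which lie in the same intron, can be set against each other in the same way. Of the counts on miR-130b-3p and miR-301b-3p, miR-301b-3p held 5.13% and 5.49% in the cells. In exosome replicate 1 it held 1 of 123 (0.813%, 95% Wilson interval 0.144 to 4.46), below both cell libraries. In exosome replicate 2 it held 0 of 38, which allows up to 7.89% and therefore does not separate the groups.

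On the mir-130b hairpin, 23.3% (1854 of 7974) and 25.9% (1557 of 6015) of the counts on the 2 arms were on the 5p arm in the cells. In the exosomes the 5p share was 5.43% (7 of 129; 95% Wilson interval 2.65 to 10.8) and 2.56% (1 of 39; 0.454 to 13.2). The exosome intervals ended below the cell values, and the mean difference was 20.6 percentage points (two-sided exact permutation test p = 0.33, the smallest possible). Among 17 hairpins with at least 20 counts on their arms in every library and a minor arm of at least 5% in the cells, mir-130b included, the share of the minor arm was lower in both exosome libraries for 11, or 64.7%, and higher in both for 4, or 23.5%. The lower share on mir-130b was therefore in the direction of most of these hairpins. The other 3 hairpins of the family were strongly one-sided in the cells, where the 5p arm took 0.767% and 0.688% on mir-130a, 2.60% and 4.98% on mir-301a and 0.898% and 2.26% on mir-301b. Their exosome counts were too few to compare the arms.

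**Figure D4:**
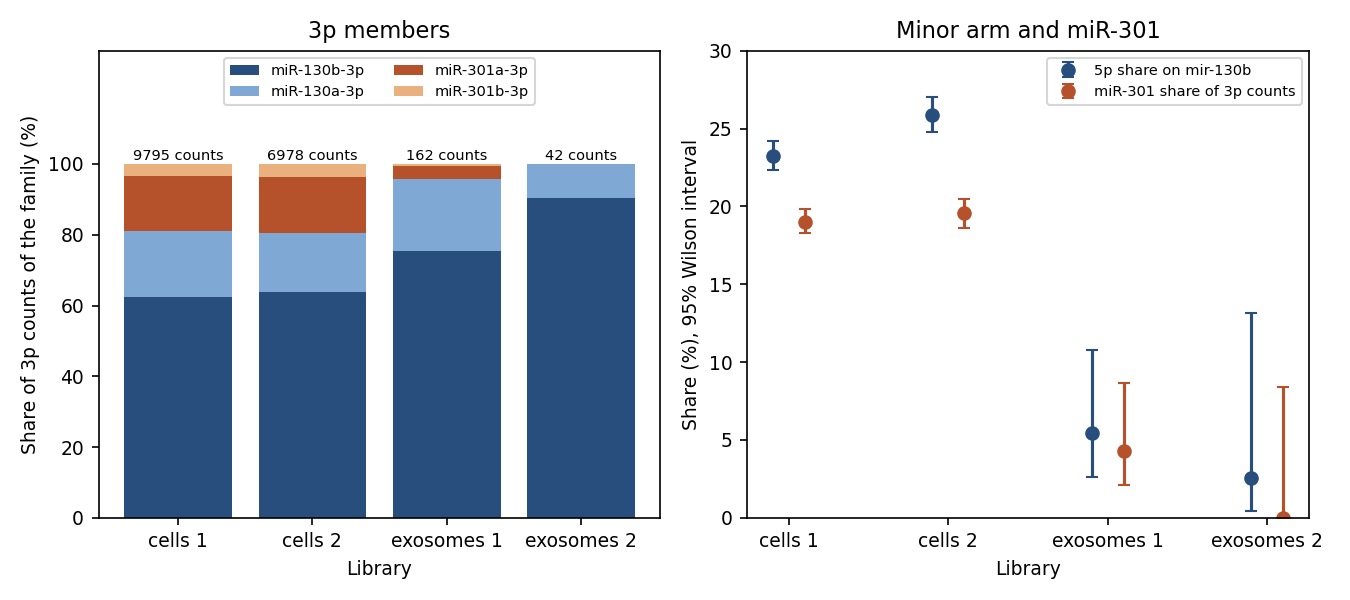
Left, share of each 3p member in the summed 3p counts of the family in each library, with the number of counts above each bar; right, share of the 5p arm on mir-130b and summed share of miR-301a-3p and miR-301b-3p in the 3p counts, with 95% Wilson intervals. Both shares on the right lie between 19.0% and 25.9% in the cells and at or below 5.43% in the exosomes.

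The summed level of the 3p members, the strands with the shared seed, was 4758 ± 441 normalized CPM (SD, n = 2) in the cells and 1444 ± 659 (SD, n = 2) in the exosomes, 3.30-fold lower. With library size alone, taken as the summed counts of the tested miRNAs, it was 3034 ± 440 CPM in the cells and 2391 ± 1478 CPM in the exosomes (SD, n = 2). On that scale exosome replicate 1, at 3435 CPM, lay above both cell libraries and replicate 2, at 1346 CPM, below them. The sum followed miR-130b-3p, which held most of it.

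Of 8 mature miRNAs in the table with the family's seed, the 4 outside the family gave almost no reads. miR-6341 had 1 count, in cell replicate 1, and miR-130c, miR-721 and miR-6389 had none in any library. Another 9 mature miRNAs hold AGUGCA or GUGCAA, 6 bases of the shared start, at an offset within their first 10 bases. Of these, 4 were tested, 2 fell and 1 rose, beside 29.5% lower and 23.7% higher of all tested miRNAs, and a count over 4 says nothing particular about them. miR-148a-3p and miR-148b-3p met the filter through the cells, and miR-19b-3p met it through the exosomes, in each case the group where they are high. Their fold changes and p-values are therefore given as a description. miR-148a-3p fell from 394 and 309 counts to 1 and 0 (log2 fold change -4.68, SE 0.74, edgeR quasi-likelihood adjusted p = 0.0127), and miR-148b-3p from 234 and 228 counts to 1 and 0 (-4.08, SE 0.78, edgeR adjusted p = 0.0195). With library size alone miR-148b-3p did not pass (-2.73, edgeR adjusted p = 0.0722). miR-152-3p, of the same family as these, did not pass (-1.30, SE 0.59, edgeR adjusted p = 0.126), and with library size alone its value was 0.02. miR-19b-3p, of the miR-17-92 family, rose from 1 count in each cell library to 18 and 4 in the exosomes (edgeR adjusted p = 0.00650).

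The miRNAs whose pattern over the 4 libraries was most like that of miR-130b-3p, by Euclidean distance of centred log2 normalized CPM, were let-7b-5p (distance 0.218), miR-151-5p (0.261) and miR-425-3p (0.383), against a median distance of 2.88 for all tested miRNAs outside the family. The log2 fold change of let-7b-5p was -1.37 (SE 0.56), from 204967 and 181166 cell counts against 4359 and 1485 exosome counts. The likeness of the others rests on fewer exosome counts, 24 and 8 for miR-151-5p and 3 and 1 for miR-425-3p. Those of miR-425-3p are at or below the detection floor. The 4 libraries that this likeness rests on are the ones that give the fold change.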

How the data were processed

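Small RNA of MIN6 cells and exosomes (2 libraries each) was sequenced after polyadenylation-based library preparation with the SMARTer smRNA-Seq Kit. The authors trimmed adapters, removed rRNA reads, aligned the rest in turn to the genome (mm10, per the labels), to miRBase v21 and to RNAcentral v10.0, and the counts that they deposited are whole reads per mature miRNA. The RPM values that the authors deposited equal each count over the sum of its library. Hairpin counts of each library, and how many of these fell on neither arm, were used as well. The labels' processing notes name cutadapt, Bowtie, Bowtie2, STAR, RSEM and edgeR, with no version. The 8 columns that split hairpin reads by arm were left out, since several values can be joined in 1 cell there.

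Groups and replicate numbers came from the sample titles. The libraries of a group differed by more than sampling noise (chi-square over its degrees of freedom was 19.5 for cells and 58.2 for exosomes) and were counted as 2 replicates. miRNAs were kept by filterByExpr (minimum count 10), which left 438, and differences of exosomes from cells were tested with edgeR's quasi-likelihood fit (edgeR 4.0.16, R 4.3.3) after TMM, with Benjamini-Hochberg adjustment over all of them. The SE was obtained by dividing the absolute log2 fold change by the root of the F statistic. Alternatives were other scalings, filters and tests (exactTest, DESeq2 1.42.0), a replicate block, the most abundant miRNAs left out, and each library left out. The fit was tested on simulated data of the same depths, where it missed many changed miRNAs and in most runs made more false calls than its adjusted threshold allows. Ratios of summed counts carry exact (Clopper-Pearson) intervals, shares Wilson intervals (scipy 1.17.1), and figures were drawn with matplotlib 3.10.9 in Python 3.11.15.

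The members and lists were chosen with earlier results of these data known. The text names the members, the other arms of their hairpins, miRNAs with the same seed, called or related miRNAs of the offset list, and the 3 most alike in pattern to the most abundant member. The comparison of minor arms over hairpins was chosen after the data were seen. Mature and hairpin sequences are those of the deposited files, and the seeds of miRNAs without reads are from RefSeq (GRCm38.p6). A sequence was known for 1851 of the 1915 mature miRNAs. Coordinates are those of GENCODE vM21 genes, which were the same in RefSeq and whose sequence matched the hairpins in the files.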

Additional observations from a re-analysis of the deposited data

Results flagged for a closer look

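Reads on neither annotated arm, which no comparison above uses, were more frequent on the mir-130b and mir-130a hairpins in the exosomes than in the cells. On mir-130b they were 7.19% of the hairpin's reads in exosome replicate 1 (10 of 139, 95% Wilson interval 3.95 to 12.7) and 4.88% in exosome replicate 2 (2 of 41, 1.35 to 16.1), against 0.0125% and 0.0166% in the cells, with 1 read in each library. On mir-130a they were 8.11% in exosome replicate 1 (3 of 37, 2.80 to 21.3), 0 of 4 in exosome replicate 2 and 0 of 1825 and 0 of 1163 in the cells. Among all hairpins with at least 20 reads, the median off-arm share was 0 in either cell library, 0.723% in exosome replicate 1 and 4.56% in exosome replicate 2, and in the exosomes 32.4% and 48.0% of them exceeded mir-130b. The difference was not tested.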

How the results depend on the processing

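The fitted log2 fold changes of the 6 members were negative in 73 of 73 combinations of member and alternative. All these fits come from the same 4 libraries, so they are not independent of each other. The median over all tested miRNAs was also negative in each setting except library size alone, where it was 0.61. The 73 include miR-130b-3p with library size alone, at -0.00, which is no change. In place of 3, the number of members lower in exosomes was 1 with library size alone, 1 with at least 10 counts in every library (where 1 member was left to test), 5 with DESeq2, 5 with exactTest, 5 without a filter and 4 after removal of the top 5 miRNAs of either group, and it ranged from 0 to 5 with a library left out. No alternative gave a member that was higher. The log2 ratio of the summed 3p level was -1.72, and -0.34 with library size alone. Over all 438 tested miRNAs, 129 were called lower and 104 higher. These became 30 and 137 with library size alone, 141 and 117 with DESeq2, and 166 and 120 with exactTest. Other filters changed the number tested as well. The calls were 202 and 104 of 1101 without a filter, and 40 and 37 of 100 with at least 10 counts in every library. After removal of the top 5 miRNAs of either group they were 135 and 97 of 430. Without either cell library edgeR's quasi-likelihood test called 0 miRNAs, with 76 lower and 83 higher at an unadjusted p under 0.05 without replicate 1, and 69 and 74 without replicate 2. The spread then rests on the exosome libraries alone. With the replicate number as a block, the same 3 members were lower among 109 lower and 117 higher calls. Deviations of same-numbered libraries had a correlation of 0.194 over the tested miRNAs, and the libraries share only a number. With all hairpin reads as denominator the 3p share in exosomes was 90.2% in place of 96.0% on mir-130b and 94.6% in place of 98.5% on mir-130a. The depth of the exosome libraries limits miR-301a-5p and miR-301b-3p most.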

Other observations

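Short motifs that have been tied in other systems to the sorting of miRNAs into vesicles were searched in the mature sequences, on the strand of the miRNA. GGAG was held by 0 of the 6 members and by 14.0% of 1851 mature miRNAs, and GGCU by 0 of the 6 and by 12.5%. CCCU was held by 1 member, miR-130b-5p, which fell in the exosomes, and by 11.3% of all. These matches describe the letters of the sequences only.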
